A study of Mus musculus with 4 samples.

Results

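In the V(D)J libraries of sorted mouse thymocytes, 2948 of 23855 assembled T cell receptor contigs carried the chain call Multi, meaning that the segments named on 1 contig belong to more than 1 receptor chain. They were taken as every contig with that call: 1506 of 12034 contigs in the turnover library and 1442 of 11821 in the autonomy library. The other contigs of these libraries were mostly called TRB (6955 and 6711) or TRA (3554 and 3648).

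All cells came from wild-type thymi studied 28 days after transplantation and sorted to cover the DN3-DN4 stages (double negative, DN), the ISP stage (immature single positive) and the double positive stage (DP). The 2 conditions, turnover and autonomy, were each read once for gene expression and once for V(D)J. The labels do not describe the hosts, do not give the number of animals and do not say what else sets the 2 conditions apart. With 1 library per condition and assay no difference could be tested, so values carry exact 95% intervals that treat UMIs (unique molecules) and cells as independent and cover counting error only.

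Thymocytes assemble the beta chain (TRB) at the double negative stage and the alpha chain (TRA) at the double positive stage, by joining V, D and J segments in the DNA and splicing the J to a constant (C) region in the RNA. The delta locus (TRD) lies inside the alpha locus, so a delta V can be joined to an alpha J, and any join of an alpha V to an alpha J deletes the delta D, J and C segments between them. Beta, alpha and gamma (TRG) segments lie on different chromosomes, so a contig that joins them names segments that are not neighbours in the genome.

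Delta V segments spliced to the alpha constant region TRAC supplied most of the Multi contigs with a called junction, the stretch from the end of V to the start of J that encodes the CDR3 (35 of 60 delta V contigs in turnover and 8 of 14 in autonomy had one). The junctions are shown because they hold the join itself. The 3 with the most UMIs in each library follow, 5′ to 3′, in the orientation of the deposited table. Capitals mark bases that are shared neither with the start of at least 3 and at least 10% of the other junctions of the same V nor with the end of as large a set with the same J.
Turnover TRDV1 to TRAJ52: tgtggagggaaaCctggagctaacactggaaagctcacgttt
Turnover TRDV1 to TRAJ57: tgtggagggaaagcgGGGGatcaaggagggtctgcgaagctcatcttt
Turnover TRDV1 to TRAJ45: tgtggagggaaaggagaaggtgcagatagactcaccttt
Autonomy TRDV1 to TRAJ45: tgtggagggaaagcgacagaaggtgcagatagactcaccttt
Autonomy TRDV1 to TRAJ37: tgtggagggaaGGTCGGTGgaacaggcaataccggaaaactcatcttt
Autonomy TRDV1 to TRAJ49: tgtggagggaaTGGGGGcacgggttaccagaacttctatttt
Both TRAJ45 junctions open with the same TRDV1 letters and close with the same TRAJ45 letters, and the bases between differ. No delta V junction occurred in more than 1 cell of a library.

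The V(D)J tables held 177475 contig UMIs in turnover and 105865 in autonomy, while 20163286 and 16388810 UMIs were counted for gene expression. Of the gene expression barcodes, 4194 turnover and 4397 autonomy cells were kept, with a median of 2117 and 2433 UMIs. The libraries shared 31 gene expression barcodes and 27 V(D)J barcodes across conditions. Clusters were named by marker levels, given as CPM, the UMIs of a gene scaled to a common total. In the 3 largest clusters, all small resting DP-like, Rag1, which encodes a recombinase subunit, stood at 1138 to 2017 CPM and Cd8a at 3786 to 3949 CPM. Of the other clusters, 1 (7 turnover and 134 autonomy cells) was mature single positive-like. Another 1 (16 and 133 cells) carried macrophage transcripts beside Rag1 at 1231 CPM and Cd8a at 2702 CPM. How its barcodes came to hold both was not tested. A cluster of 117 turnover and 9 autonomy cells had Il2ra, the receptor gene that marks DN3 cells, at 828 CPM. Its leading genes were Gm4632, Myl10 and Gm5111, and it also held Tcrg-C1 (585 CPM) and Trdc (286 CPM), so it is called Il2ra-high here.

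Multi contigs made up 12.5% of turnover contigs (95% interval 11.9% to 13.1%) and 12.2% of autonomy contigs (11.6% to 12.8%). They held 1.89% and 6.29% of the contig UMIs. They fell on 1502 turnover and 1441 autonomy barcodes, of which 1477 and 1431 were kept cells, so nearly every cell with a Multi contig had exactly 1. Full-length calls were given to 67 and 15 Multi contigs, and productive calls to 36 (2.39%) and 7 (0.485%). A D segment was named on 1 Multi contig, TRBD1 in turnover.

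A single kind of contig made up most of the class. It had no V call, an alpha J and the second beta constant region, TRBC2, and counted 1306 of 1506 Multi contigs in turnover (86.7%, 84.9% to 88.4%) and 1148 of 1442 in autonomy (79.6%). Beta V segments with an alpha J followed in autonomy, with 219 contigs (15.2%) against 20 in turnover (1.33%). Contigs with no V, a gamma J and TRBC2 numbered 69 and 27. Delta V with TRAC numbered 60 (3.98%) and 14 (0.971%).

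**Figure D1:**
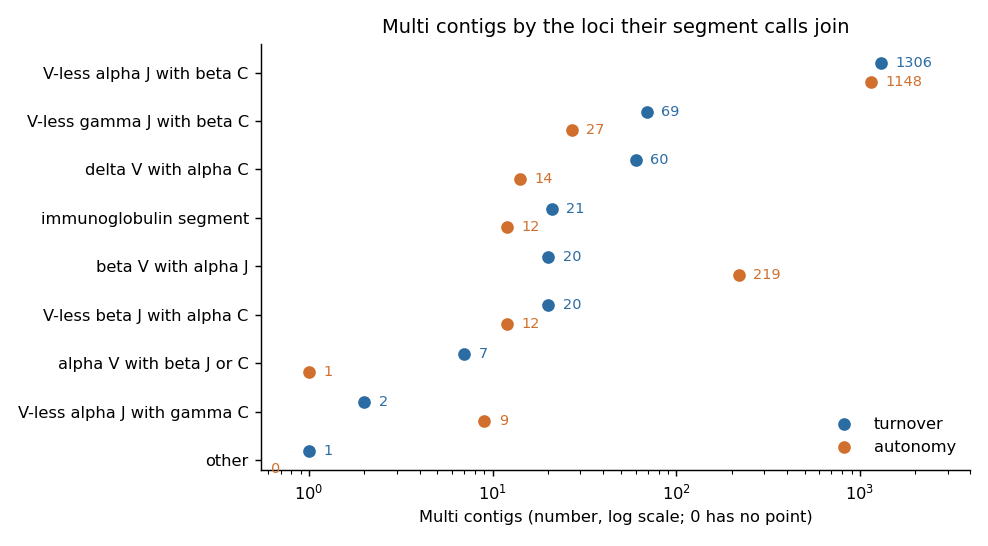
Number of Multi contigs (log axis) for each combination of loci, 1 point per library. V-less alpha J with a beta constant region leads in both libraries (1306 and 1148), and beta V with alpha J is the class that differs most in number (20 and 219).

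By constant region, TRBC2 was named on 1401 turnover and 1389 autonomy Multi contigs and TRBC1 on none. The constant regions of contigs called TRB are not given here, so whether the lack of TRBC1 is particular to Multi contigs was not tested. TRAC was named on 86 and 32, TRGC1 on 2 and 6, TRGC4 on 3 in autonomy, and immunoglobulin constant regions on the remainder with a call (IGHG1 on 7 and 2, IGHA on 5 and 3). No V was named on 1417 and 1207 contigs. Among those with a V, TRDV1 (46), TRDV2-2 (14) and TRBV31 (4) led in turnover, and TRBV19 (193), TRDV1 (12) and TRBV13-2 (11) in autonomy. The J segments were concentrated on a few: TRAJ50 was named on 1031 and 1162 contigs, TRAJ25 on 198 and 68, TRAJ4 on 80 and 90, and the gamma segment TRGJ1 on 68 and 23. In the RefSeq annotation of GRCm38.p6, Traj50 lies at chr14:54167590-54167652, Traj25 at chr14:54194815-54194871 and Traj4 at chr14:54216291-54216353, all J segments of the alpha locus. Trbc2, a constant region gene with exons, lies at chr6:41546730-41548181, and Trgj1 at chr13:19210343-19210402.

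The V-less alpha J contigs were shallow and short. Their median was 1 UMI in both libraries, and 69.1% and 69.3% rested on a single UMI. Contigs called TRA with V and J had a median of 3 UMIs (18.7% and 23.6% with 1 UMI), and contigs called TRB with V and J a median of 17 and 10 (1.58% and 4.12% with 1 UMI). Median length was 375 and 377 bases for the V-less alpha J contigs, against 564 in both libraries for TRA and 690 and 678 for TRB. V-less contigs called TRB, which have the same gap at the V but a beta J, were deeper, with 2257 and 1457 contigs and a median of 11 and 6 UMIs. The V-less gamma J contigs resembled the alpha J ones in depth and size: median 1 UMI, 359 and 363 bases.

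Length depended on which J was named. TRAJ25 contigs were long, with 182 of 198 in turnover and 64 of 68 in autonomy between 600 and 800 bases. TRAJ4 contigs lay mostly between 430 and 500 bases (44 of 78 and 41 of 82). TRAJ50 contigs spread from 250 bases upward with narrow peaks. In bins of 10 bases the fullest was the same in both libraries, 340 to 349 bases, with 138 of 1010 turnover and 167 of 946 autonomy contigs. The bin of 260 to 269 bases held 52 and 90. The bin of 320 to 329 bases held 96 turnover contigs and 36 in autonomy. The broad windows for TRAJ25 and TRAJ4 were chosen after the lengths were seen.

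**Figure D2:**
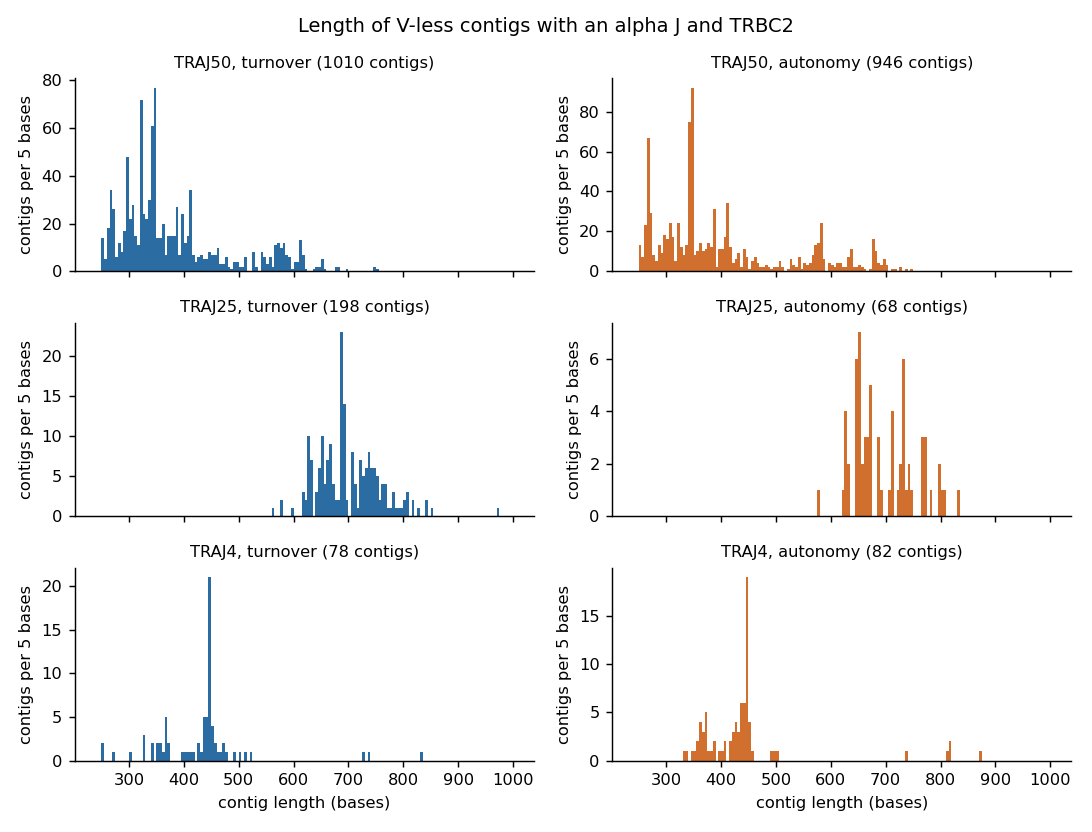
Length in bases of V-less contigs with TRBC2 and TRAJ50, TRAJ25 or TRAJ4, in bins of 5 bases, with 1 panel per J and library. TRAJ25 contigs sit mostly between 600 and 800 bases in both libraries, while TRAJ50 contigs are mostly shorter and fall in narrow peaks.

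A few V-less alpha J contigs were deep. In turnover 16 of 1306 had at least 10 UMIs and held 15.2% of the UMIs of the class. In autonomy 67 of 1148 did and held 64.4%. The deep autonomy contigs had a median length of 677 bases against 370 for the others, and 43 of 67 were at least 600 bases long. In turnover the deep contigs were as short as the rest (367 against 375 bases). No productive TRB was found beside 35 of the 67 deep autonomy contigs and 6 of the 16 in turnover, while 72.2% of autonomy cells with a V-less alpha J contig of any depth had one (823 of 1140). The TRB contigs that stood beside the deep autonomy contigs included a V-less TRBJ2-6 contig (15), a TRBV13-3 to TRBJ2-5 contig with neither a productive call nor a junction (13) and a productive TRBV12-2 to TRBJ2-7 chain (11). Those 3 were found in 345, 50 and 51 barcodes of the library.

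V-less alpha J contigs were set against the TRB and TRA state of their cells. Among kept autonomy cells the share with one was 25.7% with a productive TRB (823 of 3203), 32.4% with only unproductive TRB contigs (314 of 969) and 1.33% with no TRB contig (3 of 225). In turnover the share was 31.0% with a productive TRB (1149 of 3711) and 30.6% with only unproductive TRB contigs (136 of 445). Of the turnover cells without a TRB contig, 1 of 38 had one. The median cell without a TRB contig had 0 contig UMIs of any kind in both libraries, so few contigs could be seen there. With contigs of at least 2 UMIs only, the states were called anew, so cells whose TRB contigs had 1 UMI joined the group without TRB. In that regrouped set the autonomy share was 8.27%, against 6.21% with a productive TRB. By TRA state the turnover shares were 29.9% (productive), 32.1% (only unproductive) and 30.4% (none), and the autonomy shares 25%, 26.4% and 26.8%. Intervals by TRA state overlapped in each library.

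By stage, V-less alpha J contigs occurred throughout, also in the turnover Il2ra-high cluster, where 13.7% of cells had a contig called TRA. Turnover shares were 37.6% in the Il2ra-high cluster (44 of 117), 36.0% in cycling ISP/DP-like cells (242 of 672), 29.4% in small resting DP-like cells (765 of 2603) and 29.6% in post-selection-like cells (217 of 734). In autonomy they were 51.2% in cycling cells (127 of 248), 25.5% in small resting cells (586 of 2294), 24.3% in the 2 clusters with Dtx1, a Notch target, at 400 CPM or more (227 of 935), and 20.5% in post-selection-like cells (132 of 644). The Dtx1-high clusters were unlike each other: cluster 4 (25.5%, 203 of 796) had Ptcra at 1143 CPM, and cluster 10 (17.3%, 24 of 139), led by Lypd1, Pcsk1 and Slit3, had it at 29.1 CPM. The share of cells with a contig called TRA went the other way, at 30.4% and 23.0% in cycling cells, 73.4% and 69.7% in small resting cells and 94.3% and 93.8% in post-selection-like cells. Cycling cells also had far more RNA, with a median of 15614 and 14783 UMIs against 1856 and 2267 in small resting cells. Over all kept cells the share rose with gene expression UMIs, from 25% and 17.4% at 1000 to under 2000 UMIs to 37.5% and 41.6% at 10000 or more. The part of depth in the stage differences was not tested.

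**Figure D3:**
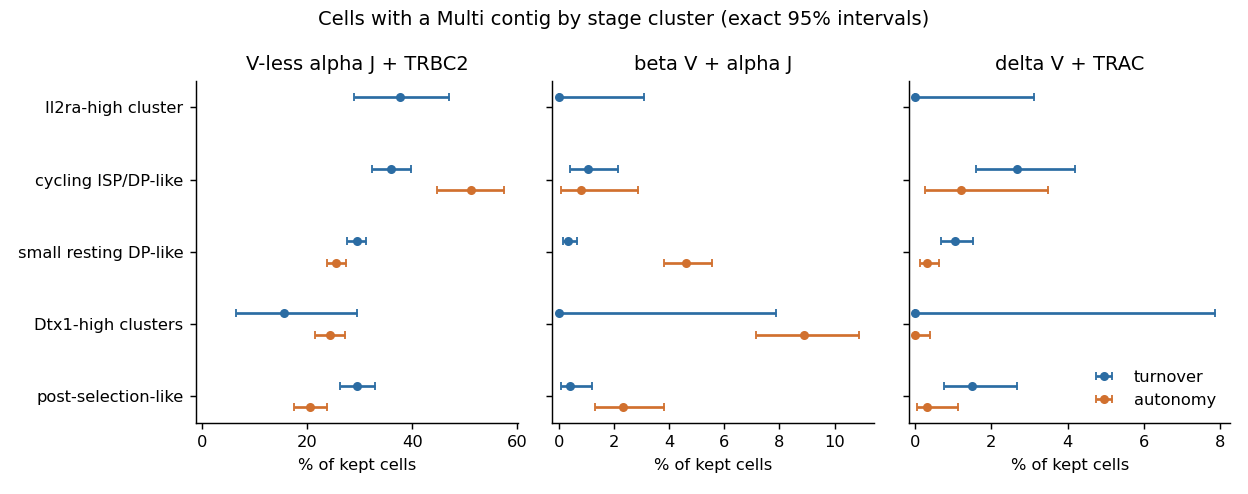
Percent of kept cells with a V-less alpha J, beta V with alpha J, or delta V contig in 5 stage groups, with exact 95% intervals, for groups of at least 20 cells. V-less alpha J is spread over all stages, beta V with alpha J is highest in the autonomy Dtx1-high clusters (8.77% for TRBV19 alone), and delta V is highest in turnover cycling cells (2.68%).

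Cells with a V-less alpha J contig differed little in their transcriptome from cells with no Multi contig. Of 8705 genes with at least 100 UMIs, 0.103% differed at least 2-fold in turnover (1286 against 2717 cells), and of 8880 genes 2.17% did in autonomy (1140 against 2966 cells). A marker is called higher or lower where the interval of its CPM ratio excludes 1. By that rule 5.21% of all genes with at least 20 UMIs were higher and 7.75% lower in turnover, and 12.2% and 19.4% in autonomy. All 6 cycling markers were higher in both libraries, with a median ratio of 1.39 and 2.52 against 0.978 and 0.953 over all genes. Of the other early and non-conventional lists in autonomy, DN3 markers were higher for 4 of 5 (median 1.25), gamma-delta T cell markers for 6 of 8 (1.53), and dendritic cell markers were lower for 4 of 5 (0.532). In turnover these counts were 0 of 6, 2 of 8 and 0 of 4. Post-selection markers were lower for 5 of 7 and 6 of 7, and mature single positive markers for 6 of 6 in autonomy and 0 of 5 in turnover. Small resting DP markers were lower for 6 of 9 in both. The cells with the contig were also deeper (median 2314 against 2004 UMIs in turnover and 2687.5 against 2377 in autonomy). In autonomy 127 of the 1140 cells were cycling. The cycling clusters 5 and 7 had Trdc, a gamma-delta marker, at 104 and 122 CPM, and small resting clusters 0, 1 and 2 at 7.2, 21.6 and 11.4 CPM. The part of this stage mix in the marker directions was not tested. After every cell was thinned to 1000 UMIs, the cycling markers were still higher for 6 of 6 in both libraries (median ratio 1.62 and 3.50). The other counts became smaller: post-selection markers were lower for 2 of 7 and 3 of 7, small resting DP markers for 3 of 9 in both, and autonomy mature single positive markers for 1 of 6. In thinned autonomy cells DN3 markers were higher for 2 of 5, gamma-delta T cell markers for 1 of 3, and dendritic cell markers were lower for 3 of 4. Over all genes in thinned cells, 3.8% were higher and 4.45% lower in turnover by the interval, and 4.66% and 4.85% in autonomy. Genes at least 2-fold apart were then 0.129% and 0.351%. Thinning leaves fewer UMIs, which by itself widens the intervals.

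Which alpha J a V-less contig named went together with the beta J cluster of the cell. TRBJ1 segments lie next to Trbc1 and TRBJ2 segments next to Trbc2. Among turnover cells with a single productive TRB, 36.3% of TRBJ1 cells (482 of 1327, 33.7% to 39%) and 26.8% of TRBJ2 cells (570 of 2126, 24.9% to 28.7%) had a V-less alpha J contig. The order was the same within cycling (41.2% and 33.5%), small resting (35.6% and 25%) and post-selection-like cells (36.5% and 25.7%). Most of the gap came with TRAJ25, at 8.44% of TRBJ1 cells and 2.12% of TRBJ2 cells, while TRAJ4 was at 1.58% and 2.02%. In autonomy the TRBJ1 and TRBJ2 shares were 29.6% (106 of 358, 24.9% to 34.6%) and 25.8% (654 of 2536), intervals that overlap, and TRAJ25 was again higher with TRBJ1 (5.03% and 1.30%). V-less TRGJ1 contigs were also more frequent with TRBJ1, at 2.34% and 1.13% in turnover and 3.07% and 0.276% in autonomy. The turnover intervals overlapped (1.59% to 3.30% and 0.725% to 1.68%). In autonomy 10 of the 11 TRBJ1 cells with one used TRBJ1-1, a group of 81 cells with 16 chains and a median of 3508 UMIs. TRBJ1-4 and TRBJ1-5 cells had 0 of 103 and 0 of 107.

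The gene expression library showed the same pairing by its own count of Trbc1, the other beta constant region, which no Multi contig named. Both libraries of a condition were made from the same cells, so this is a second reading of 1 set of cells. Of turnover cells with a V-less TRAJ25 contig, 92.4% had a Trbc1 UMI (183 of 198, 87.8% to 95.7%, median 2840 UMIs per cell), against 59.5% of other kept cells (median 2095.5 UMIs). In autonomy it was 85.3% (58 of 68) against 24.0%, at median depths of 2412.5 and 2433 UMIs. No cell group here should lack beta chain RNA, so the other kept cells serve as the background. Within small resting cells of 1500 to under 3000 UMIs the shares were 92.8% against 57.6% in turnover and 85.3% against 24.8% in autonomy. The Trbc1 level was 1.45-fold (1.38 to 1.53) and 4.24-fold (3.84 to 4.68) that of other cells. Cells with a V-less gamma J contig were alike, at 87.0% (60 of 69) against 60.6% and 85.2% (23 of 27) against 24.6%. Cells with V-less TRAJ50 were closer to the others (67.4% against 59.0%, and 27.2% against 24.4%), and for TRAJ4 the intervals of the cells with and without overlapped in both libraries (55.1% against 61.1%, and 18.5% against 25.1%).

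**Figure D4:**
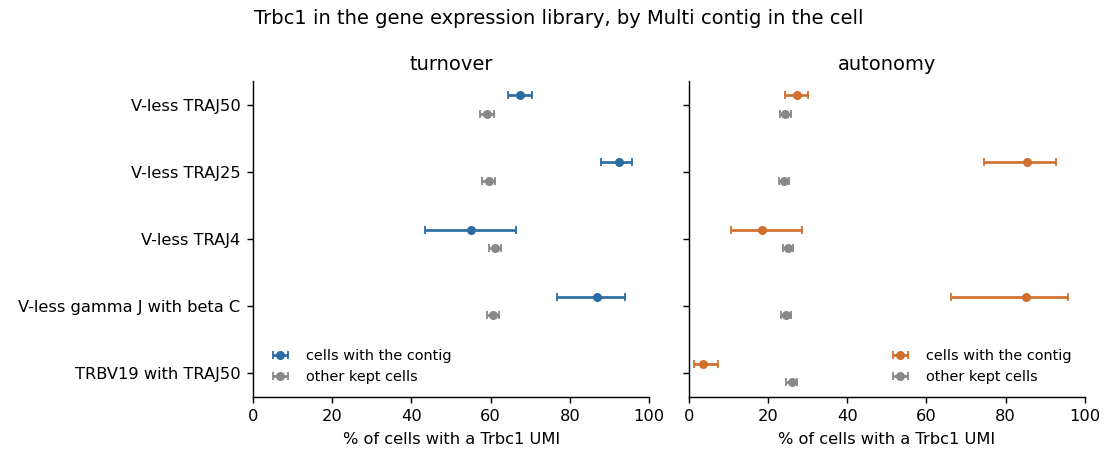
Percent of kept cells with at least 1 Trbc1 UMI in the gene expression library, for cells with each kind of Multi contig (coloured) and all other kept cells (grey), with exact 95% intervals. Cells with V-less TRAJ25 or gamma J contigs lie at 85.2% to 92.4%, above the other cells, and autonomy cells with TRBV19 to TRAJ50 lie at 3.63%, below them.

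The beta V contigs with an alpha J were mostly a single combination. TRBV19, TRAJ50 and TRBC2 were named together on 193 autonomy contigs, each in its own cell, and on 1 turnover contig of 822 bases and 17 UMIs. Trbv19, a beta V segment, lies at chr6:41178589-41179048. The autonomy contigs had a median of 8 UMIs (quartiles 5 and 11, highest 48) and a median length of 798 bases (quartiles 738 and 808). None had a CDR3 or a full-length call. No cell with one also had a V-less alpha J contig. In autonomy only 1 barcode held more than 1 Multi contig of any kind, so such a pair could hardly be seen.

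These 193 cells shared more than the Multi contig. No productive TRB was found in 173 of them, and beta V with alpha J as a class occurred in 18.0% of autonomy cells with only unproductive TRB contigs (174 of 969) against 1.28% of those with a productive TRB (41 of 3203). In 143 of the 193 (74.1%) the same unproductive TRBV4 to TRBJ2-3 junction was present, shown because it ties the cells together:
Shared TRBV4 to TRBJ2-3 junction: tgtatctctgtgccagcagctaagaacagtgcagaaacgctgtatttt
Conversely, 143 of the 182 cells with that junction (78.6%) had the TRBV19 to TRAJ50 contig, against 50 of 4217 kept cells without it (1.19%). A V-less contig with TRBJ2-5 stood beside it in 89 cells. The alpha chains of the group were not shared: 90 TRA junctions in 83 of the cells were all distinct. Cells that share a beta chain are not independent, so the intervals around these shares are too narrow.

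In the gene expression library each of the 193 cells had a Trbv19 UMI, against 434 of 4204 other kept cells (10.3%), at median depths of 2164 and 2445 UMIs. The Trbv19 level was 3200 CPM against 232 CPM, a ratio of 13.8 (13.0 to 14.6). Trbv4, the V of the shared unproductive junction, had a UMI in 127 of 193 (65.8%) against 8.73%. Trbc1 had a UMI in 7 of 193 (3.63%) against 26.0%, and in 0 of 73 against 27.1% within small resting cells of 1500 to under 3000 UMIs. Trbc2 was at 3497 CPM against 1979 CPM, a ratio of 1.77 (1.68 to 1.85). Both kinds of library named TRBV19 and TRBC2 in these cells. Both were made from the same cells, which were picked by the TRBV19 contig, so this is a second reading and no separate support. The gene expression library held no Traj50 UMI in these cells and only 3 in all other kept cells.

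By stage, the TRBV19 to TRAJ50 contig was in 82 of 935 cells of the Dtx1-high clusters (8.77%; beta V with alpha J as a class was in 83 of 796 cells of cluster 4 and 0 of 139 of cluster 10), 91 of 2294 small resting cells (3.97%), 10 of 644 post-selection-like cells (1.55%) and 1 of 248 cycling cells (0.403%). It was also in 8 of 133 cells of the macrophage-transcript cluster (6.02%). Against all other autonomy cells, 11.7% of 8972 genes differed at least 2-fold. By the interval of the ratio, 14.1% of all genes were higher and 7.65% lower. All 9 small resting DP markers were higher, among them Rag1 (1383 against 820 CPM, ratio 1.69), Rag2 (1.65), Cd4 (1.83) and Cd8a (1.45), with a median of 1.51 against 1.08 over all genes. All 6 cycling markers were lower, Mki67 at 10.2 against 117 CPM and Top2a at 36.6 against 225 CPM. Of 5 measured DN3 markers 4 were higher, including Ptcra, the surrogate alpha chain of the pre-T cell receptor (669 against 369 CPM, ratio 1.81), and Dtx1 (1.83). Post-selection markers were lower for 5 of 7, such as Itm2a (ratio 0.10) and Cd69 (0.45). Within the Dtx1-high clusters 0 of 5 DN3 markers had an interval off 1 (5.78% of all genes), and within small resting cells 1 of 9 small resting markers did (5.43% of all genes). Macrophage markers moved with this group too: 5 of 6 were higher, summed at 581 against 115 CPM, led by Lyz2 (226 against 22.9 CPM) and C1qa (120 against 20.7 CPM), and their part in the result was not tested.

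The remaining beta V contigs were few. TRBV13-2 to TRAJ50 occurred in 11 autonomy cells, and 9 of these carried 1 productive TRBV4 to TRBJ2-5 chain that was found in those 9 cells alone. In turnover the 20 beta V contigs were spread over 11 V segments with at most 3 contigs each, and their UMIs ran from 1 to 82.

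Delta V contigs were the other class with V, J and C, and the only sizeable one with productive calls. Trdv1 lies at chr14:53881612-53882217 and Trdv2-2 at chr14:53960993-53961602, between the alpha V segments and the delta constant region Trdc at chr14:54142851-54146108. Of the 60 turnover contigs 46 named TRDV1 and 14 TRDV2-2, and of the 14 autonomy contigs 12 and 2. An alpha J was named on 58 and 13. Their median was 2.5 and 2 UMIs with a highest of 15 and 11, and their median length 553 and 530.5 bases, close to the 564 bases of TRA contigs. In turnover 50% were productive (30 of 60, 36.8% to 63.2%) and in autonomy 42.9% (6 of 14), against 62.6% and 61.2% of TRA contigs with V and J.

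Their junctions were diverse at the join and uniform at the V end. All 35 turnover and 8 autonomy junctions were distinct. In turnover 21 of 25 TRDV1 junctions began with the same 12 bases, and 6 of 10 TRDV2-2 junctions shared theirs, as shown for each.
TRDV1 common start: tgtggagggaaa
TRDV2-2 common start: tgtgctctcatg
In autonomy 3 of 6 TRDV1 junctions had that start. Between the shared V and J letters lay a median of 3 bases (0 to 13) in turnover TRDV1 junctions, a count that depends on how many junctions share a letter and is no direct count of added bases.

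Delta V segments were mostly joined to the J segments nearest to them. TRAJ segments are numbered from the far end, so a high number lies nearest to the V segments. In turnover 52 of 58 delta V contigs with an alpha J named TRAJ40 or higher (89.7%, 78.8% to 96.1%; median TRAJ number 51), against 872 of 3192 TRA contigs (27.3%; median 28). In autonomy it was 10 of 13 (76.9%, 46.2% to 95%; median 49) against 537 of 3385 (15.9%; median 22). TRA contigs with TRAV21/DV12, the alpha V segment nearest to the J segments, were alike, at 69 of 78 (88.5%) and 23 of 30 (76.7%). Within small resting turnover cells 25 of 27 delta V contigs (92.6%) were upstream against 25.9% of TRA contigs. Most of those contigs lay in cluster 1, where TRA contigs were more upstream too: 23 of 25 (92.0%) against 66.7% (383 of 574), and in autonomy cluster 1 5 of 7 (71.4%) against 43.7%, where the intervals overlap. In turnover, within cycling cells 18 of 18 against 71.6%, and within post-selection-like cells 7 of 11 (63.6%) against 25.6%.

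**Figure D5:**
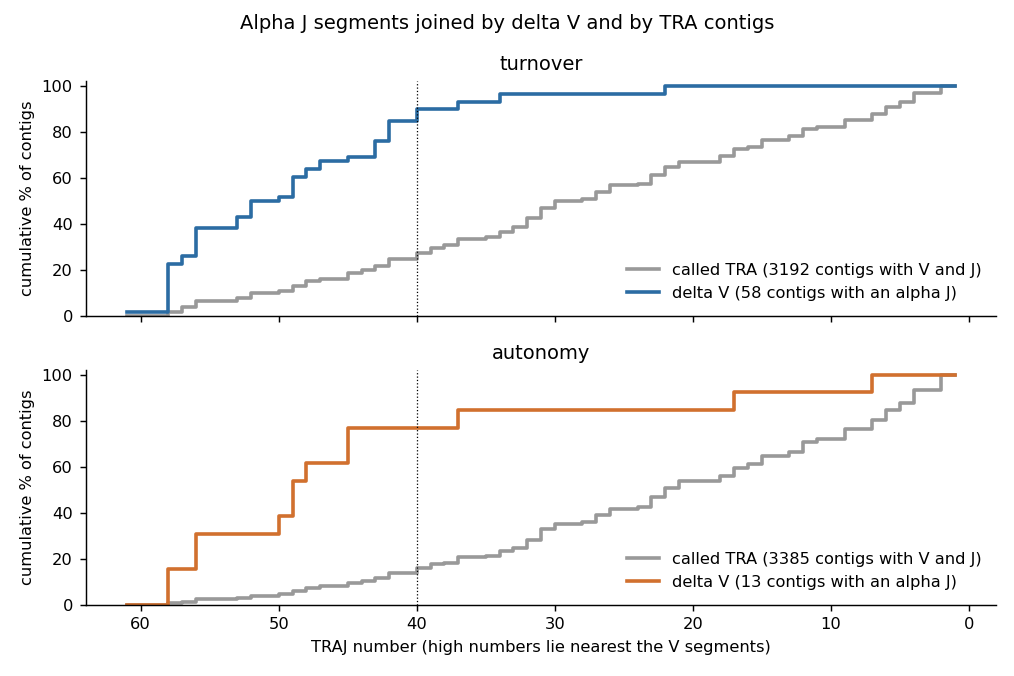
Cumulative percent of contigs by the TRAJ number named, read from the V-proximal end (left), for delta V contigs (coloured) and contigs called TRA with V and J (grey). At TRAJ40, the dotted line, delta V contigs have reached 89.7% in turnover and 76.9% in autonomy, and TRA contigs 27.3% and 15.9%.

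Cells with a delta V contig mostly had a productive beta chain, as did most kept cells, and often no contig called TRA. The delta V contig itself, which names TRAC, is called Multi and is not counted as TRA here. Of 56 kept turnover cells 52 had a productive TRB (92.9%, 82.7% to 98.0%, against 88.5% of all kept cells). Of the 56, 32 had no TRA contig (57.1%, 43.2% to 70.3%, against 31.6% of all kept cells) and 13 had a productive TRA. Of 13 autonomy cells 12 had a productive TRB and 8 no TRA contig, against 72.8% and 31.7% of all kept cells. Put the other way, delta V contigs were in 2.41% of turnover cells without a TRA contig (32 of 1327), 0.982% with only unproductive TRA (11 of 1120) and 0.744% with a productive TRA (13 of 1747). In autonomy these shares were 0.574% (8 of 1394), 0.263% (3 cells) and 0.107% (2 of 1862).

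By stage, delta V contigs were most frequent in cycling turnover cells. None was found in 117 Il2ra-high turnover cells, which allows a share of up to 2.56%, so a difference from the later stages was not detectable at this number of cells. The share was 2.68% in turnover cycling cells (18 of 672), 1.04% in small resting cells (27 of 2603) and 1.5% in post-selection-like cells (11 of 734). In autonomy it was 1.21% (3 of 248), 0.305% (7 of 2294) and 0.311% (2 of 644), and 0 of 935 cells of the Dtx1-high clusters had one. Small resting cells were not uniform: in turnover cluster 1, led by Insl5 and Slc7a11, had 25 of 764 (3.27%, 2.13% to 4.79%), cluster 0 had 0 of 1069 and cluster 2 had 2 of 729. Cluster 1 cells were deeper (median 2411.5 against 1626 UMIs in cluster 0), but at 1500 to under 3000 UMIs the counts were 15 of 578 (2.60%), 0 of 722 and 0 of 603. In autonomy cluster 1 had 7 of 706 (0.992%). TRA contigs were missing from 14 of the 25 delta V cells of turnover cluster 1 (56.0%) and from 211 of its 739 other cells (28.6%).

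The delta V calls were matched by the gene expression library. Both libraries were made from the same cells, and the cells were picked by these contigs. The match is thus a second reading and no separate support. Every kept cell with a TRDV1 contig had a Trdv1 UMI (44 of 44 and 11 of 11), and 12 of 13 and 2 of 2 cells with a TRDV2-2 contig had a Trdv2-2 UMI, while 3 of 44 turnover TRDV1 cells had a Trdv2-2 UMI. Of kept cells without a delta V contig 84 of 4138 (2.03%) and 15 of 4384 (0.342%) had a Trdv1 UMI, at median depths of 2102 and 2430 UMIs against 3253 and 4513 in delta V cells. The reverse match was partial for TRDV1 and slight for TRDV2-2. Of cells with at least 3 Trdv1 UMIs 30 of 59 in turnover (50.8%) and 6 of 12 in autonomy had the contig, and of turnover cells with at least 3 Trdv2-2 UMIs 7 of 73 (9.59%).

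Delta V cells were then set beside cells of the same library with a TRA contig and no Multi contig (56 against 1887 turnover cells, 13 against 2039 autonomy cells). Trdv1, whose contig picked most of these cells, was at 674 CPM (585 to 774) against 9.10 CPM in turnover and 569 against 3.36 CPM in autonomy. Trdc, the delta constant region, was at 16.6 against 60.3 CPM in turnover (5 UMIs, ratio 0.28, 0.09 to 0.65), and only 1 Trdc UMI was found in the autonomy delta V cells. Trac was at 143 against 208 CPM in turnover (ratio 0.69, 0.49 to 0.93) and 142 against 194 CPM in autonomy (interval of the ratio 0.40 to 1.23). Against all other kept cells, many of them without a TRA contig, the turnover Trac ratio was 1.18. No UMI of Tcrg-C1, Tcrg-C2 or Tcrg-C4 was found in delta V cells of either library. Summed over the 9 genes of the gamma-delta T cell list, delta V cells had 16.6 CPM against 84.9 CPM in turnover and 10.2 against 34.2 CPM in autonomy, on 5 and 1 UMIs, all of Trdc. The comparison level was low for most of these genes, so single zeros carry little at this depth.

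In these comparisons 12.2% of 6373 genes in turnover and 29.4% of 7165 in autonomy differed at least 2-fold, with 13 cells behind the autonomy value. The 2-fold rule takes no account of counting error, so these shares include genes with few UMIs in the delta V cells. By the interval of the ratio, 5.47% of genes were higher and 7.29% lower in turnover, and 5.53% and 4.88% in autonomy. The comparison cells were chosen for a TRA contig, and 107 of 1887 of them were cycling in turnover and 23 of 2039 in autonomy. Among delta V cells 18 of 56 and 3 of 13 were cycling, and these 3 held 58359 of 98405 UMIs. The part of this stage mix in the marker directions was not tested. All 6 cycling markers were higher in delta V cells, with a median ratio of 3.23 in turnover and 15.1 in autonomy against 0.899 and 0.823 over all genes. Top2a, a DNA topoisomerase of dividing cells, was at 1076 against 313 CPM in turnover and 976 against 70.5 CPM in autonomy. Small resting DP markers were lower for 6 of 9 and 7 of 9. Rag1 was at 415 against 910 CPM in turnover (ratio 0.46, 0.38 to 0.54) and 234 against 838 CPM in autonomy, and Rag2 had ratios of 0.81 and 0.51. Dntt, which adds bases at the joins, had ratios of 0.99 and 1.05. Post-selection markers were lower for 4 of 7 and 6 of 7: Nr4a1 had no UMI in delta V cells of either library (64.8 and 106 CPM in the comparison cells), and turnover Egr1 and Cd69 had ratios of 0.07 and 0.31. Ptcra was at 149 against 69.9 CPM in turnover, and on 4 UMIs at 40.7 against 257 CPM in autonomy.

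Within single stages some directions held and others turned. Among cycling cells alone the cycling markers were still higher in delta V cells, for 5 of 6 in turnover (median ratio 1.73) and 6 of 6 in autonomy (2.05). These values set 18 against 107 turnover cells and 3 against 23 autonomy cells, so the autonomy ratio rests on 3 delta V cells. Among all genes 7.58% were higher in these turnover cells and 5.19% in these autonomy cells, and in autonomy 9.29% had an interval off 1. Within cycling turnover cells alone the Rag1 ratio was 1.60 and 7 of 9 small resting markers were higher in delta V cells, where 12.6% of all genes had an interval off 1. Within turnover cluster 1 alone the Rag1 ratio was 0.61, 4 of 9 small resting markers were lower and 1 of 5 post-selection markers was higher, with 3.65% of all genes off 1.

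The rarer joins were named on single contigs or small groups. An alpha V with a beta J and TRBC2 was named on 7 turnover contigs with a median of 28 UMIs (1 to 120), and 5 were productive. The deepest joined TRAV14-1 to TRBJ2-7 on 120 UMIs and 709 bases, and no other contig of the 7 barcodes had the same V or J. Autonomy had 1 contig in this class, TRAV16D/DV11 with TRAJ23 and TRBC2, on 2 UMIs. V-less beta J with TRAC numbered 20 and 12, with TRBJ2-4 on 17 of the 20 and TRBJ2-1 on 6 of the 12. V-less alpha J with a gamma constant region numbered 2 and 9, of which 2 and 8 named TRAJ4. An immunoglobulin segment was named on 21 and 12 contigs, none with more than 7 UMIs, and 1 turnover contig joined a delta J, TRDJ1, to TRAC.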

How the data were processed

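Sorted thymocytes of each condition gave 1 gene expression and 1 V(D)J library. The gene expression tables held counts of UMIs per gene and cell, as deposited, and the V(D)J tables held 1 row per contig with the authors' deposited UMI count, read count, length, segment calls and productive call. Cell Ranger 3.0.2, Seurat 3.1.3.9002 and mm10 are named in the submitters' processing notes. The sources used here did not give the V(D)J reference, how cells were called or what was filtered, and each contig in these tables was called a cell's and high confidence. A Multi call depends on the segment reference and on how a partial contig is matched to it, and contig sequences were not used here.

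Contigs were sorted by the locus prefix of their V, J and C calls and joined to the gene expression table by barcode. Barcodes were kept as cells from 1000 UMIs and 500 detected genes upward, unless over 10% of their UMIs were mitochondrial. No doublet caller was run, and no doublet was removed. Cells were clustered with scanpy 1.11.5 (2000 variable genes without TCR and cell cycle genes, 30 components, 15 neighbours, centred per library, Leiden resolution 1) and named by marker levels. The levels required were chosen with the clusters in view, in CPM: C1qa 100, S1pr1 50, Il2ra 500, Mki67 100, Itm2a 100, Dtx1 400 and Rag1 1000. Levels are summed UMIs over the total of the cells compared (CPM), ratios have conditional exact binomial intervals, and shares exact Clopper-Pearson intervals. UMIs are molecules, so PCR copies of 1 UMI count once. A share of 0 is bounded by 3 counts. Genes needed 100 UMIs over both groups, and markers 20. TRA and TRB states were productive, only unproductive or none. TMM factors came from edgeR 4.0.16. Exact intervals used scipy 1.17.1, figures matplotlib 3.10.9, and tables pandas 2.3.3 with numpy 2.4.6, in Python 3.11.15. The ratio script was tested on simulated data.

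The members, the marker lists, the naming rule and most alternatives were chosen with earlier results of these data known. Named are the 6 most frequent V and J segments per library and every constant region with over 2 contigs, the 3 deepest delta V junctions per library, markers by list, and TCR constant, delta V and recombination genes. The TRBJ split, the Trbc1 comparison, the TRBV19 to TRAJ50 group and the TRBV4 junction were chosen after their values were seen. Gene positions are RefSeq's, for GRCm38.p6, the build named mm10. Comparisons within single clusters and within 1500 to under 3000 UMIs were added after the data were seen.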

Additional observations from a re-analysis of the deposited data

How the results depend on the processing

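No paired analysis was possible because each condition had 1 library per assay, and for the same reason no replicate could be left out. Of 206 settings tried on 84 values, 135 left the value in its interval or within 1.5 times, 68 moved it and 3 reversed it. Keeping only contigs with at least 2 UMIs moved most values: the Multi share became 4.89% and 5.90% (turnover, autonomy here and below), V-less alpha J contigs 404 and 352, V-less gamma J contigs 14 and 7, and the productive share of Multi contigs 6.41% and 1.21%. With that filter the V-less alpha J share of turnover cells was 9.43% (productive TRB), 10.9% (only unproductive TRB), 8.09% (productive TRA), 10.6% (only unproductive TRA) and 10.3% (no TRA). In autonomy it was 6.21%, 13.2%, 7.05%, 9.71% and 8.20% in that order, and 8.27% with no TRB contig of at least 2 UMIs. The order of productive and no TRB turned, but the filter also regrouped the cells. States were called from the contigs left, so the groups before and after it hold different cells. The delta V share of turnover cells without TRA became 1.33%. With every gene expression barcode the autonomy V-less share without TRA was 24.3%. Counting distinct junctions left 35 and 8 delta V contigs, because contigs without a called junction were dropped and no junction was repeated. Splitting at TRAJ30 gave 96.6% upstream in turnover, and at TRAJ50 51.7% and 38.5%. The Trdv1 ratio of delta V cells stood between 27.8 (cluster 1) and 213 (cycling cells) in turnover, with 33.7 against all other cells, and in autonomy it was 1568 after thinning to 1000 UMIs, 784 in cluster 1 and 5.89 in cycling cells, on few UMIs. Marker genes with an interval off 1 fell from 22 and 26 to 12 and 4 after thinning, and to 5 and 5 in cluster 1. Over all genes the share off 1 fell too, from 12.8% and 10.4% to 5.25% and 2.03% after thinning. In cluster 1 it was 3.65% and 3.63%. In autonomy cycling cells, with 3 delta V cells, the marker genes off 1 fell to 9, where 9.29% of all genes were off 1. The values that reversed were the turnover Trac ratio (1.18 against all other cells), the turnover Rag1 ratio (1.60 in cycling cells) and the autonomy Trdv2-2 ratio (0 UMIs in cycling cells). Genes at least 2-fold apart numbered 1319 with at least 50 UMIs and 86 with at least 500 in turnover, 414 with at least 500 in autonomy, and 277 with at least 500 for the TRBV19 to TRAJ50 group. Why the other values moved was not tested.

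Depth limits the V-less classes, where most contigs rest on 1 UMI, and cell number limits delta V in autonomy. Cells of 1 beta chain and barcodes shared between libraries are not independent.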
